A study of Mus musculus with 6 samples.

Results

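The genes described here encode the enzymes and transporters that build the lipid barrier of the epidermis. All 35 listed members were measured, among 18193 genes in all. They form a list of names from the known pathway, drawn up with earlier results of these data known, and each is represented by its brightest probe set among those annotated with that symbol alone. RNA came from the whole back skin of female mice killed at postnatal day 2.5. In 3 mice, labelled K5cre-caNrf2 (tg/tg), an always active mutant of Nrf2 (caNrf2), the factor that switches on antioxidant genes, was combined with Cre recombinase driven by the promoter of keratin 5, a gene of basal keratinocytes. The 3 controls are labelled K5cre-wt (tg/wt), so the Cre label is common to both groups. All 6 mice came from 1 litter of mixed FVB/N and C57BL/6 background, and the sample descriptions add the word weak to both groups without explaining it. Each array was hybridised with RNA from a single mouse. The comparison asks whether transcripts differ in skin whose keratinocytes carry active Nrf2.

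The outermost epidermal layer is sealed by sheets of ceramides, fatty acids and cholesterol. Keratinocytes make the ceramides by joining serine and palmitate, adding a fatty acid that elongases have lengthened, and desaturating the product; the longest ceramides also receive a linoleate ester, are glucosylated, packed into lamellar granules and secreted. Lipoxygenases then oxidise the linoleate so that the ceramide can be fixed to the protein envelope of dead cells, and inherited loss of many of these proteins causes scaling skin disease (ichthyosis) in people.

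The labels and arrays were examined first. Nfe2l2, the gene of Nrf2 itself, measured 9.91, 9.75 and 9.75 on the caNrf2 arrays, against 9.36, 9.40 and 9.42 on the control arrays. Its rise of 1.33-fold had an adjusted p of 0.0539 (limma), just short of the threshold of 0.05. Whether the probes of Nfe2l2 read the transgene was not tested. Nqo1, a quinone reductase and a direct Nrf2 target, measured 9.46, 9.70 and 9.42 on the caNrf2 arrays, against 6.20, 5.90 and 5.67 on the control arrays (log2 intensity). It rose 12.2-fold (limma, adjusted p = 2.70e-07). Keratinocyte markers were bright on all arrays, from 11.2 for Ivl to 14.3 for Krt10 (mean log2 intensity), and none of 10 passed the threshold (median difference 0.03). Median differences of the other marker lists were -0.23 for sebocytes, -0.10 for adipocytes, -0.07 for endothelium and -0.05 for hair follicles. They were -0.004 for fibroblasts, 0.02 for skeletal muscle and 0.04 for macrophages. In whole skin, fewer cells of a type and less RNA per cell cannot be told apart. The median intensity of an array lay between 80.7 and 81.9. The upper quartile ran from 331.2 to 343.4 on the caNrf2 arrays and from 329.4 to 332.3 on the control arrays. The lower quartile ran from 23.46 to 24.5 and from 24.59 to 24.86. The hybridisation controls, bacterial and phage transcripts added before hybridisation, averaged 10.86 on the caNrf2 arrays and 10.68 on the control arrays. This difference of 0.17 is as large as many of the differences reported below. The 24 probe sets of the other class measured, the poly-A controls, did not show it. They averaged 9.175 on the caNrf2 arrays and 9.176 on the control arrays, a difference of -0.001, and the groups overlapped. Whether the offset of the hybridisation controls has a part in the differences below was not tested.

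No barrier lipid gene passed the threshold of an adjusted p under 0.05 over all genes, in either direction, where 0.374% of all genes were called, 0.346% as higher and 0.0275% as lower (limma). The differences lay between -0.27 for Cers4 and 0.37 for Lipk on the log2 scale. The 95% intervals of 34 of the 35 members lay within a change of 1.5-fold in either direction, the exception being Lipk, whose interval ended at 1.53-fold, and 13 lay within 1.2-fold. A positive difference was found for 26 of 35 members, against 47.2% of all genes, with a median of 0.07 against -0.01 for all genes. An unadjusted p under 0.05 was found for 8 members, all higher, where the share of all genes was 8.09%, with 3.26% higher and 4.82% lower. This number fell to 3 without caNrf2 array 3 or without control array 1 and to 4 without control array 2. The share of all genes in those runs is not given here. The groups did not overlap for 7 members, all higher in caNrf2 skin, where 6.23% of all genes were higher without overlap and 6.88% lower.

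**Figure D1:**
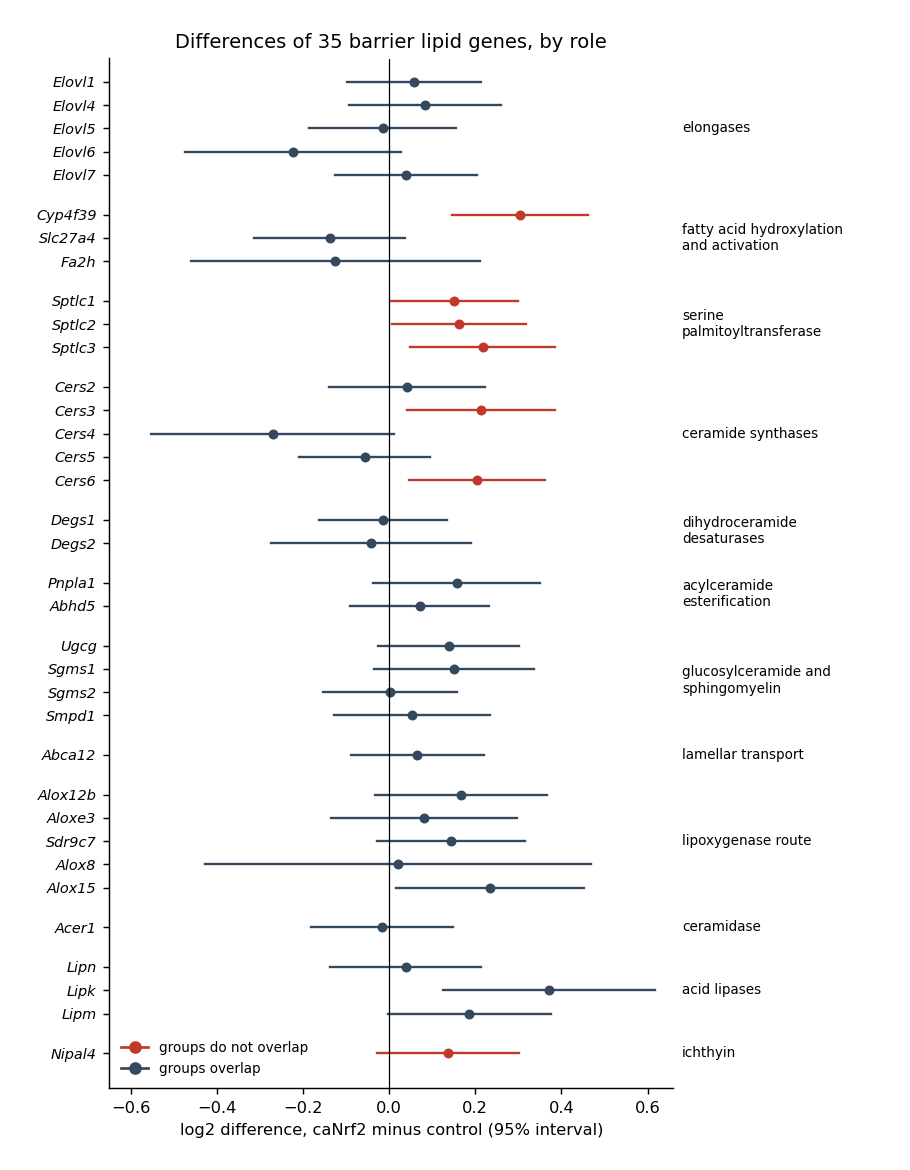
Log2 difference between caNrf2 and control skin (x axis, points) with its 95% interval (bars) for each of the 35 barrier lipid genes, grouped by role. Red marks the 7 genes whose groups do not overlap, all to the right of 0; Lipk at 0.37 and Cers4 at -0.27 are the extremes.

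Genes of similar signal were shifted too. Over all genes the median difference was -0.03 below a mean log2 intensity of 4 and -0.07 at 5 to 6. It was 0.02 at 10 to 11 and 0.002 at 13 and above. Dim genes thus sat slightly lower in caNrf2 skin and bright ones slightly higher, except the very brightest. Of the 7804 genes with a mean log2 intensity from 8 to 12, 60.3% were positive, with a median of 0.02. Of the 27 members in that range 19 were positive, with a median of 0.08, and 6 were higher at an unadjusted p under 0.05, against 4.14% of all genes in the range. Relative to the control mean, the median over the 35 members was 0.10, 0.11 and 0.08 on the caNrf2 arrays and between -0.02 and 0.01 on the control arrays. All caNrf2 arrays thus showed the upward shift. When the arrays were quantile normalised once more, the median of the members was 0.05 and 25 were positive. The median of all genes was then -0.019, against -0.007 before.

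**Figure D2:**
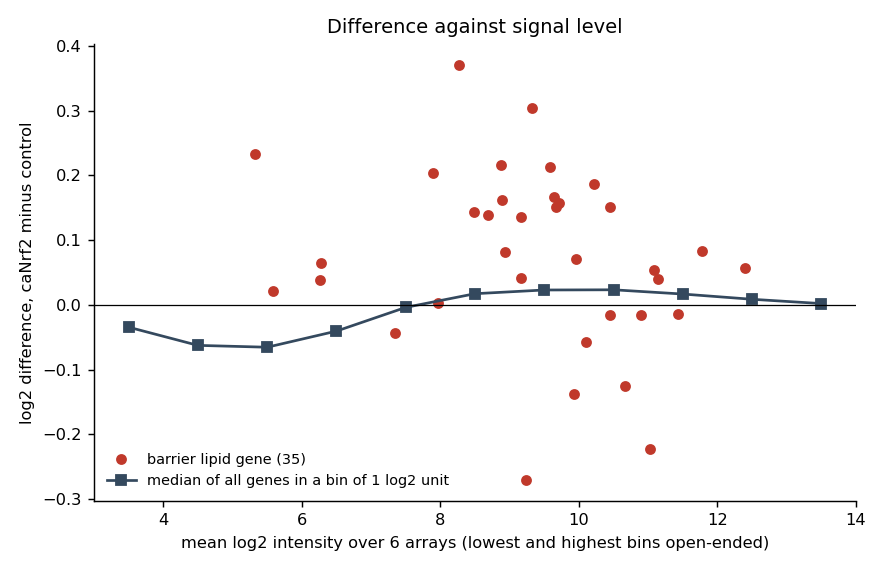
Log2 difference (y axis) against mean log2 intensity over the 6 arrays (x axis) for the 35 barrier lipid genes (red points), with the median of all genes in bins of 1 log2 unit (line). The line runs from about -0.07 among dim genes to 0.02 among bright ones, and most red points lie above it.

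The first step of ceramide synthesis is catalysed by serine palmitoyltransferase, a complex of Sptlc1 with either Sptlc2 or Sptlc3 as the catalytic partner. Each of the 3 subunit genes was higher in caNrf2 skin without overlap of the groups, and none passed the adjusted threshold. Sptlc1, the subunit common to both complexes, measured 10.48, 10.56 and 10.51 in caNrf2 skin, against 10.36, 10.38 and 10.36 in control skin (log2 intensity). The log2 difference was 0.15 ± 0.07 (SE), or 1.11-fold, with an adjusted p of 0.613 (limma). The control values were nearly identical, so this small step stands clear of both groups' spread.

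Sptlc2 measured 8.97, 9.04 and 8.92 in caNrf2 skin, against 8.78, 8.80 and 8.86 in control skin, a difference of 0.16 ± 0.07 (SE; limma adjusted p = 0.603). Sptlc3, which favours shorter acyl chains, measured 8.94, 8.96 and 9.06 in caNrf2 skin, against 8.76, 8.69 and 8.85 in control skin. Its difference of 0.22 ± 0.08 (SE) corresponds to 1.16-fold (95% interval 1.04 to 1.31; limma adjusted p = 0.472). Every caNrf2 array was above every control array for both genes. Their other probe sets did not show this: for Sptlc2 they differed by 0.03 and 0.01, for Sptlc1 by 0.02, -0.13 and -0.03, and for Sptlc3 a very dim one differed by -0.20 (log2, fit of all probe sets).

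Ceramide synthases attach the fatty acid, each preferring its own chain length, and they did not move together. Cers3, which uses the ultra-long chains typical of the epidermis, measured 9.73, 9.59 and 9.73 in caNrf2 skin, against 9.40, 9.56 and 9.45 in control skin. The difference was 0.21 ± 0.08 (SE), or 1.16-fold (limma adjusted p = 0.505). The lowest caNrf2 array was only just above the highest control array. Cers6, which prefers palmitate, measured 8.0, 7.93 and 8.04 in caNrf2 skin, against 7.74, 7.77 and 7.84 in control skin, a difference of 0.20 ± 0.07 (SE; limma adjusted p = 0.472). Here the gap between the groups exceeded the SD of 0.05 within each. Cers5, the other palmitate synthase, differed by -0.06 ± 0.07 and Cers2, the synthase of very long chains in many tissues, by 0.04 ± 0.08, both with overlapping groups.

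Cers4, whose loss in mice disturbs hair follicles and sebum, had the lowest difference of all members. It measured 9.20, 9.31 and 8.78 in caNrf2 skin, against 9.48, 9.37 and 9.26 in control skin. The difference was -0.27 ± 0.13 (SE), a level 0.829 of control (95% interval 0.682 to 1.01; limma adjusted p = 0.636). Among caNrf2 arrays number 3 was the low one, and the groups overlapped. All 3 probe sets of Cers4 gave the same difference of -0.27, and caNrf2 array 3 was lowest on each of them.

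**Figure D3:**
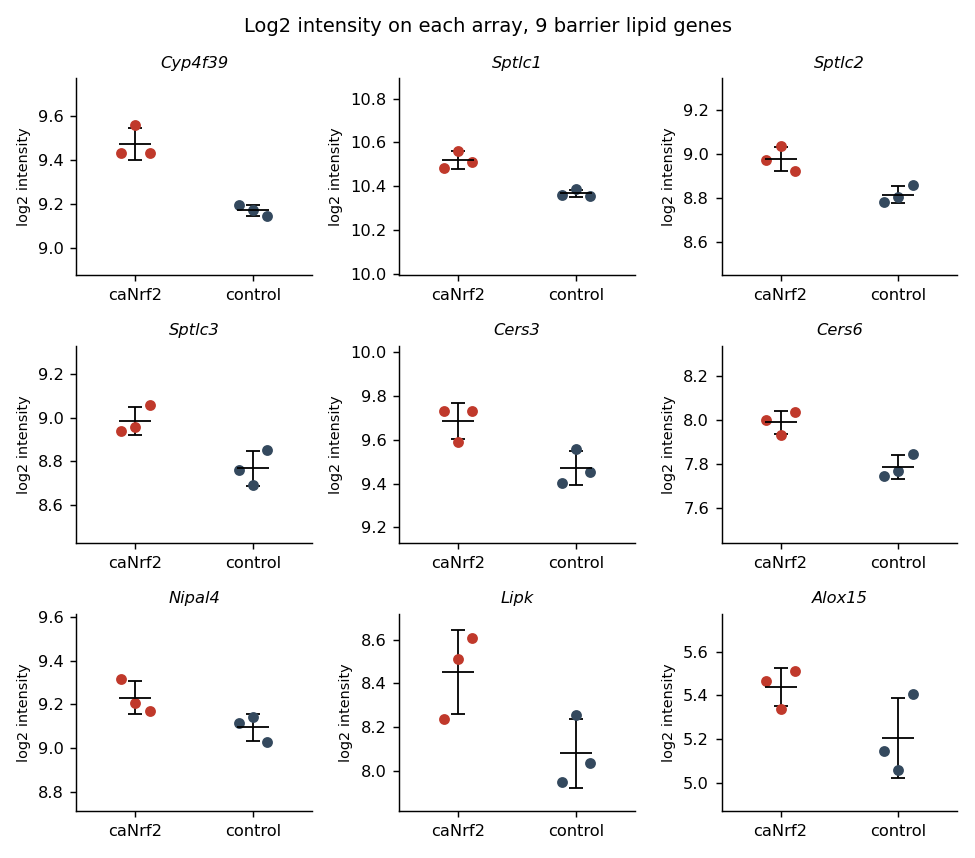
Log2 intensity on each array (points; bars show mean ± SD, n = 3) in caNrf2 (left) and control skin (right) for 9 barrier lipid genes, with each panel spanning 0.9 log2 units. The groups do not overlap for Cyp4f39, Sptlc1, Sptlc2, Sptlc3, Cers3, Cers6 and Nipal4, and they overlap for Lipk and Alox15.

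The fatty acids that enter epidermal ceramides are lengthened by elongases. None of these 5 genes had an unadjusted p under 0.05 on the probe set used. Elovl1, the elongase of saturated very long chains, differed by 0.06 ± 0.07 and Elovl4, which makes the ultra-long chains of acylceramides, by 0.08 ± 0.08 (log2 difference ± SE). All probe sets of both genes were positive, 4 for Elovl1 and 2 for Elovl4. Elovl5, an elongase of polyunsaturated fatty acids, differed by -0.02 ± 0.08. Elovl6, which turns palmitate into stearate, measured 11.18, 10.83 and 10.72 in caNrf2 skin, against 11.21, 11.13 and 11.07 in control skin. Its difference was -0.22 ± 0.11 (SE; limma adjusted p = 0.664), with caNrf2 arrays 2 and 3 below the controls and array 1 among them. The other probe sets of Elovl6 differed by -0.12 and, on a dim one, by 0.0005.

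Elovl7, an elongase of saturated long chains, depended on the probe set. The brightest, of a kind that can bind other transcripts as well (suffix _x_at), measured 11.23, 11.08 and 11.17 in caNrf2 skin, against 11.10, 11.19 and 11.08 in control skin, a difference of 0.04. One of its other 5 probe sets measured 9.52, 9.47 and 9.52 in caNrf2 skin, against 9.10, 9.22 and 9.13 in control skin. These groups were well apart, with a difference of 0.35 ± 0.07 (SE), but the adjusted p in the fit of all probe sets was 0.150 (limma). The remaining 4 differed by 0.21, 0.08, 0.09 and 0.22, so all 6 probe sets were positive.

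**Figure D4:**
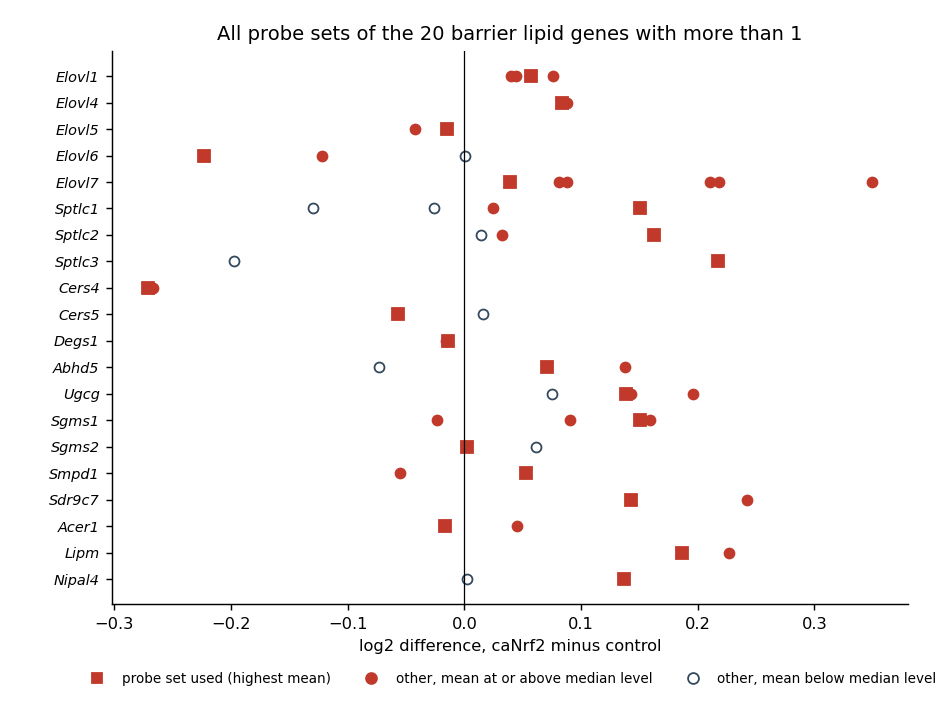
Log2 difference of every probe set (x axis) of the 20 barrier lipid genes that have more than 1. Squares mark the probe set used and open circles those whose mean lies below the median level of all probe sets; the 6 Elovl7 sets run from 0.04 to 0.35, and the 3 Cers4 sets coincide at -0.27.

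A further 3 proteins prepare the chains. Cyp4f39, the omega-hydroxylase that adds the terminal hydroxyl group on which the linoleate ester is built, had the smallest p of all members. It measured 9.43, 9.56 and 9.43 in caNrf2 skin, against 9.20, 9.17 and 9.15 in control skin (log2 intensity). All caNrf2 arrays were above all control arrays by more than the spread within either group. The difference was 0.30 ± 0.07 (SE), or 1.24-fold (95% interval 1.11 to 1.38), with an unadjusted p of 0.00155 and an adjusted p of 0.203 (limma). Slc27a4, which imports fatty acids and couples them to coenzyme A, differed by -0.14 ± 0.08, its caNrf2 values of 9.76, 9.99 and 9.83 reaching into the control values of 10.03, 9.99 and 9.97.

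Fa2h, the fatty acid alpha-hydroxylase, measured 10.84, 10.79 and 10.18 in caNrf2 skin, against 10.79, 10.76 and 10.64 in control skin. Only caNrf2 array 3 was low, and the difference of -0.12 ± 0.15 (SE; limma adjusted p = 0.884) became 0.09 without it. That array also stood apart in markers of skin appendages. Relative to the control mean, the 6 measured sebocyte markers averaged -0.19, -0.18 and -0.47 on the caNrf2 arrays. The 7 measured hair follicle markers averaged 0.28, 0.04 and -0.49 there. They were Krt31, Krt34, Krt81, Krt86, Krt25, Krt71 and Msx2, which are not all hair shaft genes. Summed sebocyte marker intensity ranged from 3115 to 4006 on the caNrf2 arrays and from 4326 to 4603 on the control arrays. Summed hair follicle marker intensity ranged from 25154 to 36659 on the caNrf2 arrays and from 31277 to 32178 on the control arrays. On caNrf2 array 3, Krt25 and Krt71 gave 10660 and 8799 of the hair follicle sum. Of the sebocyte markers 1, Scd3, passed the threshold as lower, where 0.0275% of all genes did. Mc5r, with a mean of 6.30, lay below the median level of all probe sets. Plin2 alone gave 1935 of the sebocyte sum of 3770 on caNrf2 array 1. It ranged from 1714 to 2294 on the caNrf2 arrays and from 2372 to 2505 on the control arrays. Scd3, Elovl3 and Plin2 were lower without overlap of the groups, and Far2, Mc5r and Pparg overlapped. Whether the sebocyte sum reads sebocytes alone was not tested. The levels of Fa2h, Cers4 and Elovl6 were lowest on caNrf2 array 3, as were those of Elovl5, Cers5, Degs2 and Alox8. Relative to the control mean, Elovl6 was also low on caNrf2 array 2, at -0.31. There the sebocyte markers averaged -0.18 and the hair follicle markers 0.04. The part of appendage content in these differences was not tested.

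**Figure D5:**
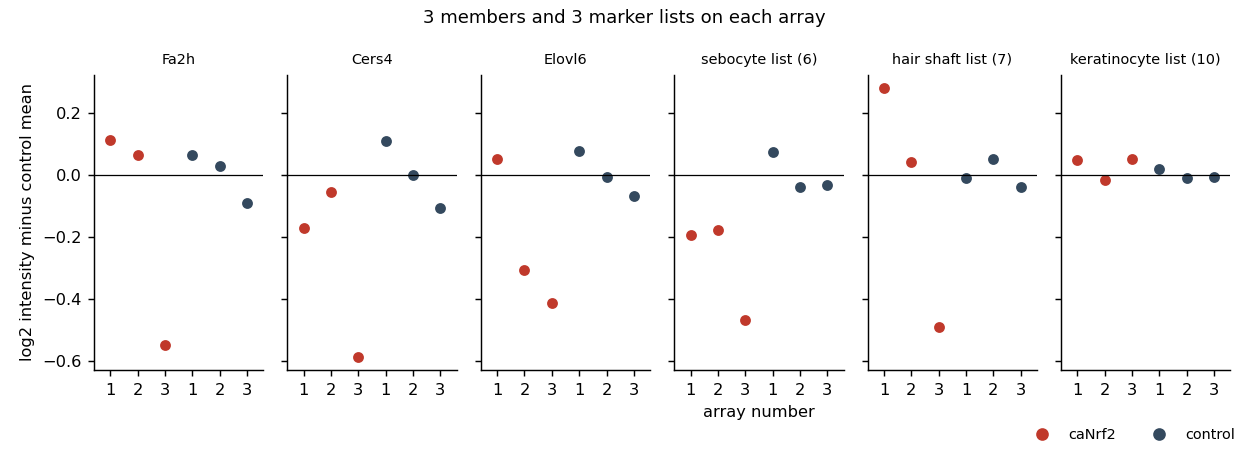
Log2 intensity minus the control mean (y axis) on each array (x axis, caNrf2 red at left, control dark at right) for Fa2h, Cers4 and Elovl6. The other panels show the mean of the sebocyte, hair follicle (titled hair shaft list) and keratinocyte marker lists. Number 3 of the caNrf2 arrays is lowest for all 3 genes and for the sebocyte and hair follicle lists, at -0.47 and -0.49. It is not lowest for the keratinocyte list, at 0.05.

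The desaturases that complete the ceramide backbone were close to equal. Degs1 measured 11.41, 11.42 and 11.42 in caNrf2 skin, against 11.42, 11.47 and 11.40 in control skin, a difference of -0.01 with a 95% interval of -0.16 to 0.13. Degs2, which adds a hydroxyl group in place of the double bond, differed by -0.04 ± 0.10 (SE). Pnpla1, the transacylase that makes acylceramide, differed by 0.16 ± 0.09 and Abhd5, its cofactor, by 0.07 ± 0.07, with overlapping groups for both.

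Ceramides leave the cell as glucosylceramide or sphingomyelin. Ugcg, the glucosylceramide synthase, measured 8.69, 8.82 and 8.77 in caNrf2 skin, against 8.57, 8.59 and 8.70 in control skin. Its difference was 0.14 ± 0.07 (SE; limma adjusted p = 0.686), and all 4 of its probe sets were positive, between 0.08 and 0.20. The highest control array lay just above the lowest caNrf2 array, so the groups overlapped. Of the sphingomyelin synthases, Sgms1 differed by 0.15 ± 0.08 and Sgms2 by 0.003 ± 0.07, and Smpd1, the acid sphingomyelinase that returns ceramide outside the cell, differed by 0.05 ± 0.08. Abca12, which loads lipid into lamellar granules, differed by 0.07 ± 0.07 on a dim probe set with a mean of 6.28.

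The lipoxygenase route was positive throughout but nowhere past the threshold. Alox12b, which oxidises the linoleate of acylceramide first, measured 9.54, 9.81 and 9.84 in caNrf2 skin, against 9.59, 9.52 and 9.57 in control skin. The caNrf2 arrays 2 and 3 were above the controls and array 1 lay among them, giving 0.17 ± 0.09 (SE; limma adjusted p = 0.690). Aloxe3, which acts on the product of Alox12b and is its direct neighbour in the gene order of chromosome 11, measured 8.75, 9.09 and 9.10 in caNrf2 skin, against 8.90, 8.91 and 8.88 in control skin, with caNrf2 array 1 again the lowest and a difference of 0.08 ± 0.10. Sdr9c7, the dehydrogenase that follows them, differed by 0.14 ± 0.08, and a second, equally bright probe set by 0.24 ± 0.08 without overlap of the groups. Alox15, a lipoxygenase better known from macrophages, measured 5.46, 5.34 and 5.51 in caNrf2 skin, against 5.15, 5.06 and 5.41 in control skin. Control array 3 reached into the caNrf2 values, and the difference was 0.23 ± 0.10 (SE; unadjusted p = 0.0378, limma adjusted p = 0.588). Alox8, a lipoxygenase that phorbol ester induces in mouse skin, differed by 0.02 ± 0.20 with overlapping groups. Both probe sets were dim, with means of 5.32 and 5.59.

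Lipk, Lipn and Lipm lie next to each other on chromosome 19 and encode acid lipases of late keratinocyte differentiation. Lipk had the largest difference of all members. It measured 8.24, 8.51 and 8.61 in caNrf2 skin, against 7.95, 8.26 and 8.04 in control skin. The lowest caNrf2 array fell just below the highest control array, so the groups overlapped. The difference was 0.37 ± 0.11 (SE), or 1.29-fold (95% interval 1.09 to 1.53), with an adjusted p of 0.366 (limma). Lipm differed by 0.19 ± 0.08 and Lipn, on a dim probe set, by 0.04 ± 0.08. The last 2 members are the alkaline ceramidase Acer1, which breaks epidermal ceramides down and differed by -0.02 ± 0.07, and Nipal4 (ichthyin), a membrane protein of the outer epidermis. Nipal4 measured 9.31, 9.21 and 9.17 in caNrf2 skin, against 9.11, 9.14 and 9.03 in control skin. The groups were separate by a small margin, with a difference of 0.14 ± 0.07 (SE; limma adjusted p = 0.690). Its other probe set, a dim one with a mean of 6.26, differed by 0.002 with overlapping groups.

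The SD over 3 arrays was larger in caNrf2 than in control skin for 29 of 35 members, as it was for 68.2% of all genes. The median SD of the members was 0.08 in caNrf2 and 0.07 in control skin (log2), against 0.11 and 0.07 over all genes. In caNrf2 skin the spread was smallest for Degs1 and largest for Alox8, whose caNrf2 arrays spanned 6.10 to 5.20.

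Nrf2 binds DNA with small Maf proteins at antioxidant response elements, whose core is TGACNNNGC on one strand and GCNNNGTCA on the other. Windows from 250 bases before to 50 after annotated start sites were available from RefSeq (GRCm38.p6) for 31 members, and not for Aloxe3, Fa2h, Alox15 and Lipk. The core was found on either strand in 4 of 41 member windows (9.76%), against 12.4% of 32851 windows of all genes. All 4 sites, in the windows of Cyp4f39, Cers3, Ugcg and Sdr9c7, are shown with the core in capitals and 10 bases on each side. These 4 genes had positive differences, as had 26 of the 35 members. The sites of the Nrf2 targets Gclm and Srxn1 and of Ppard, described next, are given for comparison.
Cyp4f39: ctgtcagactGCACTGTCAaagaagcgga
Cers3: aaagagcgaaGCCAGGTCAgtctgaggca
Ugcg: agagcgcgcaGCGCGGTCAgcctgcgctc
Sdr9c7: cagggcagtgGCTTTGTCAgagtgacaca
Gclm: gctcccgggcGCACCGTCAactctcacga
Srxn1: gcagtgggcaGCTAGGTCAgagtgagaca
Ppard: tgggagcgtgTGACGCCGCaggccgcggc
The printed sequences are those of the plus strand, on which all 7 genes are annotated; the core reads forward on it in Ppard and in reverse in the other sites. They lie at chr17:32452737-32452765 for Cyp4f39, chr7:66743369-66743397 for Cers3, chr4:59189376-59189404 for Ugcg, chr10:127898405-127898433 for Sdr9c7, chr3:122245413-122245441 for Gclm, chr2:152105542-152105570 for Srxn1 and chr17:28232740-28232768 for Ppard. The core began 125, 164 and 120 bases before the start site in Cers3, Ugcg and Sdr9c7, and at base 25 after it in Cyp4f39. The share of member windows was no higher than that of all windows. A match of these letters does not show binding, and the windows leave out distant elements.

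Other genes of barrier lipid metabolism were also measured, 96 in 4 lists. A single one passed the threshold, where 0.374% of all genes were called. This gene was Ppard, which encodes the fatty acid receptor PPAR-delta, a nuclear receptor abundant in keratinocytes that promotes their differentiation. It measured 8.84, 9.07 and 8.90 in caNrf2 skin, against 8.38, 8.32 and 8.34 in control skin (log2 intensity). The groups were far apart relative to the spread within either. Ppard rose 1.51-fold (log2 difference 0.59 ± 0.08 SE, 95% interval 1.33 to 1.70-fold, limma adjusted p = 0.00858). A second probe set, with a mean of 5.38, differed by -0.004. The call was lost when any control array was left out (adjusted p = 0.0517, 0.0672 and 0.0571 without control arrays 1 to 3) and when the probe sets of each gene were averaged (0.299).

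Among 16 regulators, 1 was called higher and 0 lower, against 0.346% and 0.0275% of all genes. Tfap2a, a transcription factor of the epidermis, measured 10.22, 10.15 and 10.04 in caNrf2 skin, against 10.41, 10.44 and 10.46 in control skin. It was lower on every caNrf2 array, by -0.30 ± 0.07 (SE; limma adjusted p = 0.245), and its other probe sets differed by -0.27 and -0.11, the last with overlapping groups. Grhl3, which drives barrier formation, differed by 0.16 ± 0.07 (limma adjusted p = 0.609) without overlap of the groups.

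The 26 measured sphingolipid enzymes outside the members held no called gene, where 0.374% of all genes were called. A positive difference was found for 21, with a median of 0.10, where the share of positive genes was 47.2% over all genes and 60.3% over those with a mean log2 intensity from 8 to 12. Unadjusted p was under 0.05 for 6, all higher, against 3.26% of all genes. They included Acer2, a ceramidase of the Golgi, at 0.27 ± 0.09, the glycolipid carrier Gltp at 0.19 ± 0.07 and the galactosidase Gla at 0.19 ± 0.07 (log2 difference ± SE), each without overlap of the groups and with adjusted p of 0.439, 0.503 and 0.509 (limma). Against the same shares, of 28 genes of fatty acid supply none was called and 17 were positive, with a median of 0.02. The 3 with the smallest p were Acsl6, Elovl3 and Aldh3a2. Acsl6, a fatty acid activator, differed by 0.39 ± 0.12 and the fatty aldehyde dehydrogenase Aldh3a2 by 0.15 ± 0.07. The elongase Elovl3 differed by -0.37 ± 0.12. It measured 9.62, 9.43 and 9.08 in caNrf2 skin, against 9.82, 9.70 and 9.72 in control skin. Elovl3 is also 1 of the 6 measured sebocyte markers, so its low value on caNrf2 array 3 is already part of their mean. Of 26 genes of lamellar bodies and lipid processing none was called, 13 were positive and the median was 0.01. There Alox12 differed by 0.19 ± 0.08, the cholesterol exporter Abca1 by -0.20 ± 0.09 and the lysosomal lipase Lipa by -0.14 ± 0.07.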

How the data were processed

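The deposited values are linear intensities, 1 for each probe set on each array, which the authors made with RMA per the submitters' processing notes; no version or software is named there. RMA makes array distributions nearly equal, hides a shift common to most genes and compresses folds of dim genes. Values were converted to log2. Of 45101 probe sets 64 array controls were left out, and 34945 carried 1 gene symbol. The brightest probe set on average represented each of 18193 genes. The groups (3 arrays each, separate mice) were fitted in limma 3.58.1 (R 4.3.3) without block or covariate, p-values were adjusted over all genes (Benjamini-Hochberg), and the threshold was 0.05. SE and 95% intervals come from that fit, and ± is SE unless SD is stated. The number of arrays limits the precision.

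Members and lists were chosen with earlier results of these data known. Values on each array were given for the 8 members with the smallest p and those whose groups do not overlap, and the 3 genes of each other list with the smallest p were named. Other array values were added after they were seen. Same-numbered arrays did not deviate together (correlations -0.20, -0.03 and 0.04 for numbers 1 to 3), so the replicate number was not taken as a pairing. No columns of other samples were present. Marker lists of 8 cell types were read from the same fit. Of 53 measured markers 1 passed, Scd3, where 0.374% of all genes were called.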

Additional observations from a re-analysis of the deposited data

How the results depend on the processing

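No member was called under any alternative run: the replicate number as a block, quantile normalisation, median centring of arrays, an intensity trend, robust eBayes, array weights, dropping dim genes, averaging or separately testing probe sets, leaving out each array, and, chosen after the data were seen, cyclic loess and dropping probe sets of the kinds _x_at and _s_at. Counts of members at an unadjusted p under 0.05 were 8 with the replicate block, 12 with array weights, 15 of 71 probe sets when every probe set was tested (12 higher and 3 lower, 2 of Cers4 and a dim one of Sptlc3), and 3 to 10 when single arrays were left out, with 3 without caNrf2 array 3 or control array 1 and 4 without control array 2. The shares of all genes at that p under these settings are not given here. Changes in these counts therefore cannot be told from changes common to all genes. The median of the members was 0.0496 after quantile normalisation and 0.0745 to 0.095 without single arrays. That of all genes was -0.0185 after quantile normalisation and -0.0175 to 0.0036 without single arrays. Over all genes 108 probe sets were called when each was tested, the replicate block gave 61 genes, and 41 to 89 were called without single arrays, with the low counts of 41, 43 and 45 without control arrays 1 to 3. Called genes among the other barrier pathway genes numbered 0 with the mean of all probe sets and 0 to 1 without single arrays. The differences of 10 members changed sign somewhere, with Fa2h the one farthest from 0, at -0.12. Sgms2 was -0.0291 with quantile normalisation and -0.0216 with cyclic loess, Alox8 -0.14 with array weights, and with the mean of all probe sets Acer1 was 0.0144 and Smpd1 -0.0011. Without single arrays Acer1 ran from -0.057 to 0.0131, Alox8 from -0.231 to 0.219, Lipn from -0.0127 to 0.0786, Sgms2 from -0.0196 to 0.0374, Cers2 from -0.0202 to 0.0974, Degs1 from -0.0287 to 0.0067, Degs2 from -0.157 to 0.0425, Elovl5 from -0.0721 to 0.0381 and Fa2h from -0.243 to 0.0869. The cause was not tested. No other member changed sign. Dim probe sets such as those of Alox15, Alox8, Abca12 and Lipn limit what can be measured for these genes.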
